A study of Mus musculus with 7 samples.

Results

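Diacylglycerol kinases and sphingomyelin synthases act at neighboring steps of membrane lipid metabolism, and they are described here in mouse ovaries by 10 genes of the 55487 in the count tables. These are the kinase genes Dgka, Dgkd, Dgke, Dgkg, Dgkh, Dgkq and Dgkz and the synthase family genes Sgms1, Sgms2 and Samd8, found by their symbols in GENCODE M21. Whole ovaries were taken at postnatal day 60 in diestrus from C57BL/6J mice, and every mouse gave a library of its own. The 3 CNTR mice were the offspring of dams that received PBS in late gestation (E16.5 to E18.5). The 4 PAMH F3 mice descended, through F1 and F2 mice that received nothing, from F0 dams injected on the same days with anti-Müllerian hormone (AMH) at 0.12 mg/kg per day. The labels call these injections subcutaneous and the study's methods call them intraperitoneal. The CNTR mice belong to the first generation, so that descent from treated dams and generation cannot be told apart. Labels do not say whether mice shared a litter, and p values measure the spread between these libraries.

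Diacylglycerol kinases phosphorylate diacylglycerol to phosphatidic acid, and thereby end the signal that diacylglycerol gives to protein kinase C and the RasGRP exchange factors. Sphingomyelin synthases move the phosphocholine head of phosphatidylcholine onto ceramide, which consumes ceramide, makes sphingomyelin and releases diacylglycerol. The product of the synthases is therefore a substrate of the kinases. In the ovary, diacylglycerol is formed by phospholipase C below receptors such as the prostaglandin F2 alpha receptor of luteal cells, and ceramide is known as a death signal in oocytes.

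The list was drawn up when the differences of Dgkh and Sgms2 between the CNTR and PAMH F3 libraries were already known. Differences between the groups are therefore a description for all 10 genes. Their calls from the test over all genes are printed beside the background and are not read as support. Levels are CPM (reads scaled to library size) after TMM scaling over all gene rows. The libraries held from 32158174 to 35485021 reads counted on genes. All 10 genes passed the filter on low counts, and Dgkg, the lowest, had between 18 and 54 counts.

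Marker lists were read beside the lipid genes, because fewer cells of a type and less RNA per cell cannot be told apart in whole ovaries. The 5 oocyte markers and the 6 granulosa markers had counts in every library, and the theca marker Insl3 lay between 0 and 0.15 CPM. Oviduct markers were present too. Their sum lay between 2980 and 5248 CPM in CNTR and between 2549 and 6330 CPM in PAMH F3, and most of it was Ovgp1, the oviductal glycoprotein.

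Dgkh and Sgms2 had the largest differences between group means among the 10 genes. Dgkh, a type II kinase with a pleckstrin homology domain, lies on chromosome 14 from 78558750 to 78732776 on the minus strand of GRCm38, as does Sgms2 on chromosome 3 from 131318985 to 131491411. Sgms2 encodes the sphingomyelin synthase of the plasma membrane. A stretch upstream of a start of each of these genes is shown, and shared control of them was not tested. For each gene it is the RefSeq window before a start site (GRCm38.p6) that holds the most CpG, less the bases in an annotated exon of the gene. The Dgkh stretch is chr14:78732777-78732979 and the Sgms2 stretch is chr3:131490231-131490407, both read on the minus strand, with motif matches in capitals. The Dgkh stretch lies just outside the annotated gene. The Sgms2 stretch lies inside its gene and begins directly after an annotated exon.
Dgkh: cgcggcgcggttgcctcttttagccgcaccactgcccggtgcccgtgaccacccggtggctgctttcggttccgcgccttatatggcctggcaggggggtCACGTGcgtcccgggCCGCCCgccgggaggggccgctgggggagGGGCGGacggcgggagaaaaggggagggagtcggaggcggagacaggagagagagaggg
Sgms2: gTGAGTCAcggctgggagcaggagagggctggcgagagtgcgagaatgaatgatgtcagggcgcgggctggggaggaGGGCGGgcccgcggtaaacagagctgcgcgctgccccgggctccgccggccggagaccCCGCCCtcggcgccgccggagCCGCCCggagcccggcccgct

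The stretches held 23 CpG in the 203 bases of Dgkh and 23 in the 177 bases of Sgms2. Their windows were picked for the most CpG, so this richness follows from the choice. The median over all RefSeq windows of 250 bases was 6 CpG. The capitals mark the GC box GGGCGG, which matched 2 times in the Dgkh stretch and 3 times in that of Sgms2, on either strand. The Dgkh stretch also held 1 E box, CACGTG, and the Sgms2 stretch 1 AP-1 motif, TGACTCA. This AP-1 match lies at the edge of the exon left out, so it may be intron sequence of a longer Sgms2 transcript. Among 32851 RefSeq windows of 250 bases, 32.7% held the GC box, 6.02% the E box and 4.46% the AP-1 motif. The choice by CpG favors motifs that contain CG, such as the GC box and the E box. The CCAAT box CCAAT, the TATA box TATAAA, the NR5A motif CAAGGTCA and the cyclic AMP response element TGACGTCA had no match in these letters. Dgkh has 3 such windows and Sgms2 has 6, and the other windows held fewer CpG. Over the 25 windows of all 10 genes, some of which overlap, 16 held the GC box, 6 the CCAAT box and 5 the E box. The AP-1 motif was in 3, and the TATA box and the NR5A motif in 1 each. Over all windows the shares were 33.85% for the CCAAT box, 12.4% for the TATA box and 1.33% for the NR5A motif.

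In CNTR libraries, Dgkh was at 42.1, 66.2 and 32.3 CPM in replicates 1 to 3, and in PAMH F3 libraries at 56.7, 60.9, 63.9 and 48.1 CPM in replicates 1 to 4. The highest and the lowest library were both CNTR, so that the PAMH F3 libraries all fell inside the CNTR range. The mean was 46.9 ± 17.4 CPM in CNTR ovaries (SD, n = 3) and 57.4 ± 6.85 CPM in PAMH F3 ovaries (SD, n = 4). The fitted log2 fold change of Dgkh, PAMH F3 against CNTR, was 0.44 with an SE of 0.11 when 2 surrogate variables, covariates estimated from the counts, were in the model. It was 0.29 with an SE of 0.22 without them. Without surrogate variables the value rested on single CNTR libraries: it was 0.62 without CNTR replicate 2 and 0.08 without CNTR replicate 3.

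Sgms2 was at 91.5, 106 and 71.5 CPM in CNTR replicates 1 to 3 and at 103, 115, 116 and 91.3 CPM in PAMH F3 replicates 1 to 4. Replicates 2 and 3 of PAMH F3 lay above every CNTR library, while replicates 1 and 4 lay among them. The means were 89.7 ± 17.3 CPM in CNTR ovaries (SD, n = 3) and 106 ± 11.8 CPM in PAMH F3 ovaries (SD, n = 4). The log2 fold change of Sgms2 was 0.29 with an SE of 0.06 with the surrogate variables and 0.25 with an SE of 0.14 without them. Without surrogate variables it was 0.38 when CNTR replicate 2 was left out and 0.11 when CNTR replicate 3 was left out.

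**Figure D1:**
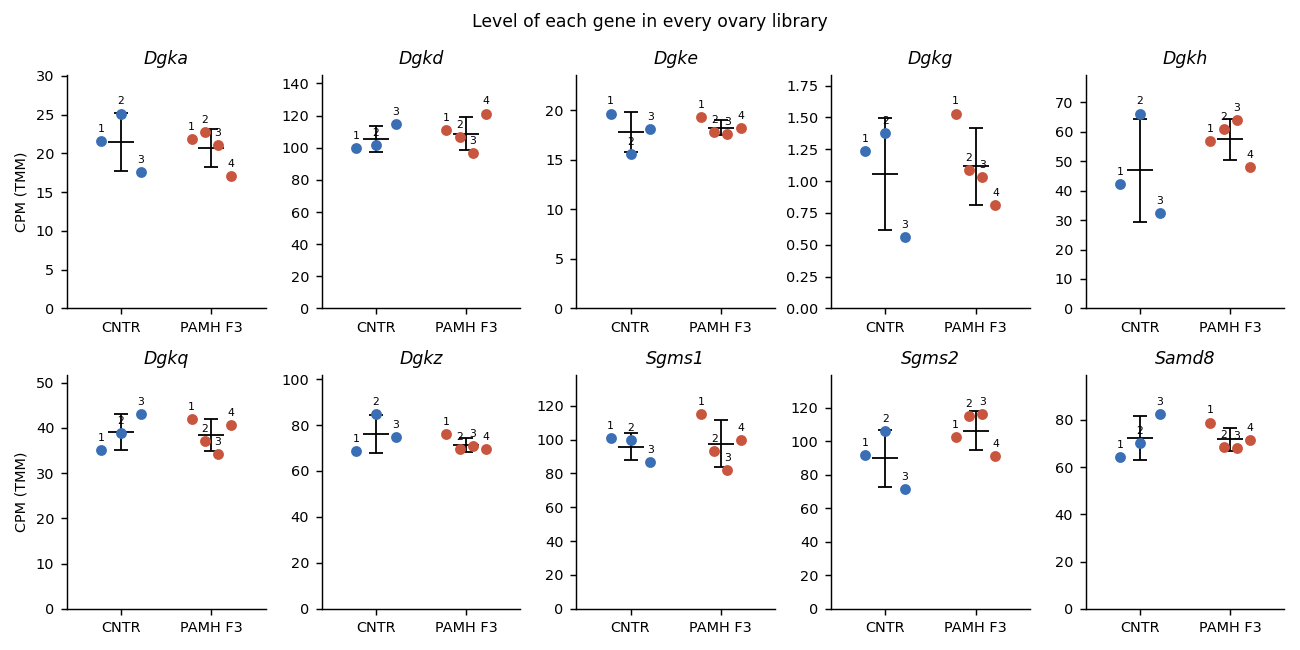
Level of each of the 10 genes in CPM after TMM scaling (vertical axis, from 0) in the 3 CNTR and 4 PAMH F3 ovary libraries, with replicate numbers beside the points and the group mean and SD as bars. The groups overlap in every panel, and CNTR replicate 3 is the lowest library for Dgkg, Dgkh and Sgms2.

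At an adjusted p of at most 0.05 in edgeR's quasi-likelihood test, 0 of the 10 genes were called, and the share over the 18779 genes tested was 0% as well. DESeq2, given the same covariates, called 0 of the 10 and 0.58% of the 17413 genes to which it gave an adjusted p. The adjusted p was 0.058 for Dgkh and 0.070 for Sgms2 in DESeq2's test, and 0.52 and 0.43 in edgeR's test. Dgkh and Sgms2 were the 2 genes of the list with an unadjusted p under 0.05 in edgeR, where the share over all genes was 7.63%, and without surrogate variables there were 0, where it was 3.89%. As the list was built on this comparison, nothing is read from these counts and p values. Libraries of the groups overlapped for 10 of the 10 genes, and did not overlap for 4.25% of all genes tested. The median log2 fold change of the 10 genes was 0.01, and that of all genes tested was 0.01.

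**Figure D2:**
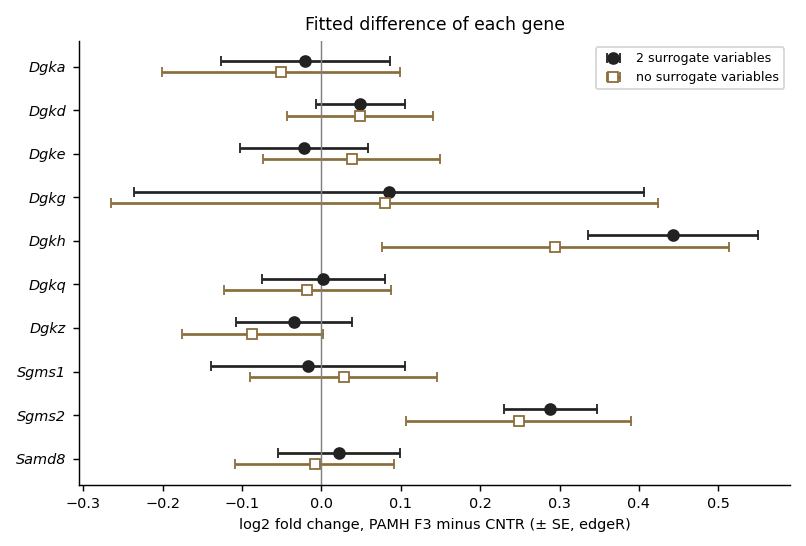
Fitted log2 fold change of each gene, PAMH F3 minus CNTR (horizontal axis), with its SE derived from edgeR's F, with 2 surrogate variables (filled circles) and without (open squares). Dgkh at 0.44 and Sgms2 at 0.29 stand to the right of the other 8 genes, and both have wider errors without surrogate variables.

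The other type II kinase, Dgkd, was among the most abundant genes of the list. It was at 99.6, 102 and 115 CPM in CNTR and at 111, 107, 96.5 and 121 CPM in PAMH F3, where the lowest and the highest library both belonged to PAMH F3. Its log2 fold change was 0.05 with an SE of 0.06. The coding sequences of Dgkd and Dgkh were 73.4% identical over 2723 aligned bases, the longest alignment between any of the 7 kinases, yet no run of 50 bases, the read length, was shared between transcripts of any 2 of the 10 genes.

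Dgka and Dgkg encode calcium-regulated type I kinases, and their coding sequences were 69.6% identical over 1023 aligned bases. Dgka was at 21.6, 25.1 and 17.6 CPM in CNTR and at 21.9, 22.7, 21.1 and 17.1 CPM in PAMH F3. Dgkg was far lower, at 1.24, 1.38 and 0.557 CPM in CNTR and at 1.53, 1.08, 1.03 and 0.815 CPM in PAMH F3. In both genes CNTR replicate 3 and PAMH F3 replicate 4 were the lowest libraries of their groups. The log2 fold change was -0.02 with an SE of 0.11 for Dgka and 0.08 with an SE of 0.32 for Dgkg, with a 95% interval from -0.67 to 0.84.

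The remaining kinases belong to classes of their own. Dgke, the type III kinase that prefers arachidonoyl diacylglycerol, was at 17.8 ± 2.06 CPM in CNTR ovaries (SD, n = 3) and 18.3 ± 0.767 CPM in PAMH F3 ovaries (SD, n = 4). Dgkz, a type IV kinase with ankyrin repeats, was at 76.1 ± 8.23 CPM (SD, n = 3) and 71.5 ± 3.06 CPM (SD, n = 4). Dgkq, the type V kinase, was at 39.1 ± 3.96 CPM (SD, n = 3) and 38.5 ± 3.52 CPM (SD, n = 4). For these 3 genes the log2 fold changes were -0.02, -0.03 and 0.00 with SEs of 0.08, 0.07 and 0.08. The Dgkq value carries a limit of annotation: 26.7% of the 50-base windows of its transcripts also occur, on the opposite strand, in transcripts of Tmem175 and Idua, which overlap it. The kit kept strand, and the strand setting of the counting is not given in the sources used here.

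Sgms1, the synthase of the Golgi, was at 101, 99.9 and 86.6 CPM in CNTR and at 115, 93.4, 82.0 and 99.6 CPM in PAMH F3. The highest and the lowest library were both PAMH F3, and the log2 fold change was -0.02 with an SE of 0.12. Samd8, which makes ceramide phosphoethanolamine in the endoplasmic reticulum and no sphingomyelin, was at 72.3 ± 9.32 CPM in CNTR ovaries (SD, n = 3) and 71.7 ± 5.01 CPM in PAMH F3 ovaries (SD, n = 4), with a log2 fold change of 0.02 and an SE of 0.08. The coding sequences of Sgms1 and Sgms2 were 71.4% identical over 765 aligned bases.

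Ratios within a library show how the makeup of each family varied. Sgms2 over Sgms1 in CPM was 0.906, 1.06 and 0.826 in CNTR and 0.890, 1.23, 1.42 and 0.916 in PAMH F3. Only PAMH F3 replicates 2 and 3 stood above the highest CNTR library. Dgkh made up 14.6%, 19.8% and 10.7% of the summed CPM of the 7 kinases in CNTR and 17.3%, 19.3%, 20.9% and 15.2% in PAMH F3, with PAMH F3 replicate 3 alone above the CNTR range. The summed CPM of the kinases was 308 ± 23.6 (SD, n = 3) in CNTR and 316 ± 9.52 (SD, n = 4) in PAMH F3, and that of the 3 synthase genes was 258 ± 17.6 and 276 ± 15.3.

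Levels of different genes were compared per kilobase (kb) of transcript, over all 7 libraries. This ordering did not enter the choice of genes and was tested between neighbors by an exact sign-flip permutation test over libraries, two-sided, adjusted over 9 pairs. The smallest p it can give is 0.0156. Per kb of median transcript length, Sgms2 stood at 155 ± 24.7 CPM per kb and Dgkd at 150 ± 12.3 CPM per kb (SD, n = 7). They were followed by Dgkz at 81.2, Sgms1 at 60.7, Samd8 at 45.2, Dgkh at 14.5, Dgkq at 8.56, Dgka at 7.63, Dgke at 3.47 and Dgkg at 0.400 CPM per kb. The pairs are neighbors in the ranking of these same libraries, so their direction was not set beforehand. Of the 9 neighboring pairs, 7 passed the threshold, most with an adjusted p of 0.0234 by this exact permutation test. The step from Dgkh to Dgkq held in 6 of 7 libraries, with an adjusted p of 0.0402 by the same exact permutation test.

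Sgms2 and Dgkd did not differ beyond their spread, with a mean log2 ratio of 0.04 ± 0.33 (SD, n = 7) and an adjusted p of 0.75 in the exact permutation test. Dgkq and Dgka did not either, with a mean log2 ratio of 0.17 ± 0.28 (SD, n = 7) and an adjusted p of 0.281 in that exact permutation test. The order depends on the length used, since the median transcript of Sgms2, Dgkd and Dgkz has 638, 716 and 905 bases and their longest coding transcript 5801, 5695 and 4169 bases. Per kb of all exons joined, Dgkh was below Dgkq, at 3.12 against 5.39 CPM per kb, and Samd8 and Sgms1 no longer differed, at 9.42 and 9.18 CPM per kb. Per kb of the longest coding transcript Sgms1 stood first, at 24.0 CPM per kb. Across the 3 length measures and all 7 libraries, 34 of the 45 pairs of genes kept their order. Dgkd, Dgkz and the 3 synthase genes were above each of Dgka, Dgke, Dgkg, Dgkh and Dgkq in all of these.

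**Figure D3:**
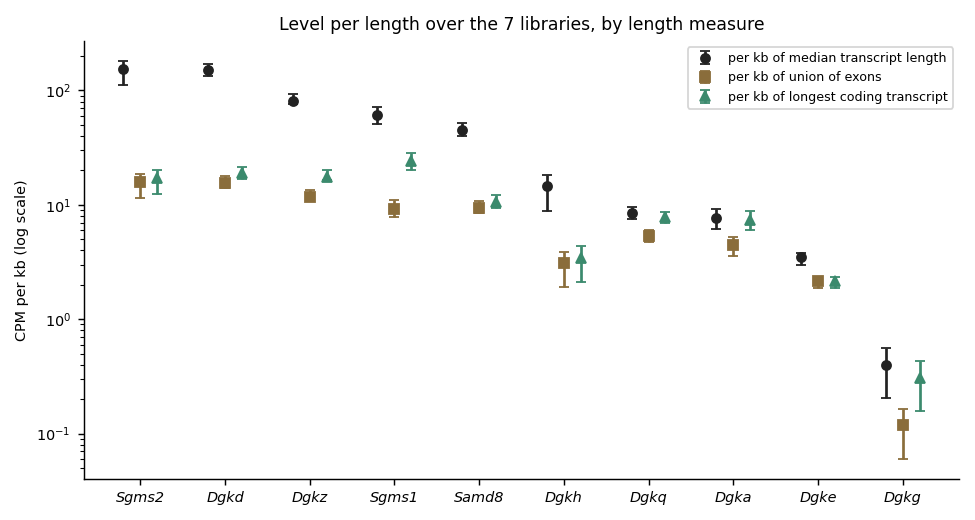
Mean level of each gene over the 7 libraries in CPM per kb (vertical axis, log scale) by 3 length measures, with bars from the lowest to the highest library. Dgkg is lowest by every measure, and Dgkh is above Dgkq only per kb of median transcript length.

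The other 3 kinase genes of the family were low. Dgkb, of type I, lay between 4.52 and 7.51 CPM, and Dgkk, of type II, between 0.725 and 1.48 CPM. Dgki, of type IV, had between 1 and 6 counts per library and was not tested. The groups overlapped in each of them, and the log2 fold changes were 0.12 with an SE of 0.19 for Dgkb and 0.15 with an SE of 0.29 for Dgkk, each with an adjusted p above 0.9 in edgeR's test. Without surrogate variables they were 0.03 and 0.23.

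Spread between ovaries differed among the 10 genes. The coefficient of variation over the 7 libraries was 23.6% for Dgkh and 15.9% for Sgms2, against 7.35% for Dgke and 7.85% for Dgkz, and its median over all genes tested was 14.3%. Dgkg varied most, with 30.5%. Dgkh had a highest over lowest ratio of 2.05 within the CNTR group alone.

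Dgkh and Sgms2 varied together. Over the 7 libraries, Pearson's r between their log2 CPM was 0.95 and Spearman's rho 0.86. It was 0.84 without the 2 libraries farthest from the median of Dgkh, 0.94 after group means were removed, and between 0.87 and 0.98 with any 1 library left out. CNTR replicate 2, with PAMH F3 replicates 2 and 3, was high in both genes, and CNTR replicate 3 low in both. All 45 pairs of genes were computed, and these libraries share depth scaling and tissue makeup, so that the values are a description of 7 ovaries.

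Dgkd, Dgkq and Samd8 formed a second set. Pearson's r was 0.83 between Dgkd and Dgkq, 0.89 between Dgkq and Samd8 and 0.63 between Dgkd and Samd8, with rho of 0.86, 0.96 and 0.82. Sgms2 had r of -0.61 to Dgkq, which was 0.02 without the 2 libraries farthest from the median of Dgkq. Dgka and Dgkg also went together (r = 0.83, rho = 0.79), at 0.38 without the 2 libraries farthest from the median of Dgka. Dgka and Dgkg had r of 0.71 and 0.71 to Dgkh and of 0.69 and 0.70 to Sgms2. These values were between 0.05 and 0.44 without the 2 libraries farthest from the median of Dgka or Dgkg. Dgkh had r of -0.45 to Dgkd, its nearest relative by sequence here, -0.43 to Dgkq and -0.43 to Samd8. Sgms2 had r of -0.57 to Samd8, which was 0.16 without the 2 libraries farthest from the median of Sgms2.

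**Figure D4:**
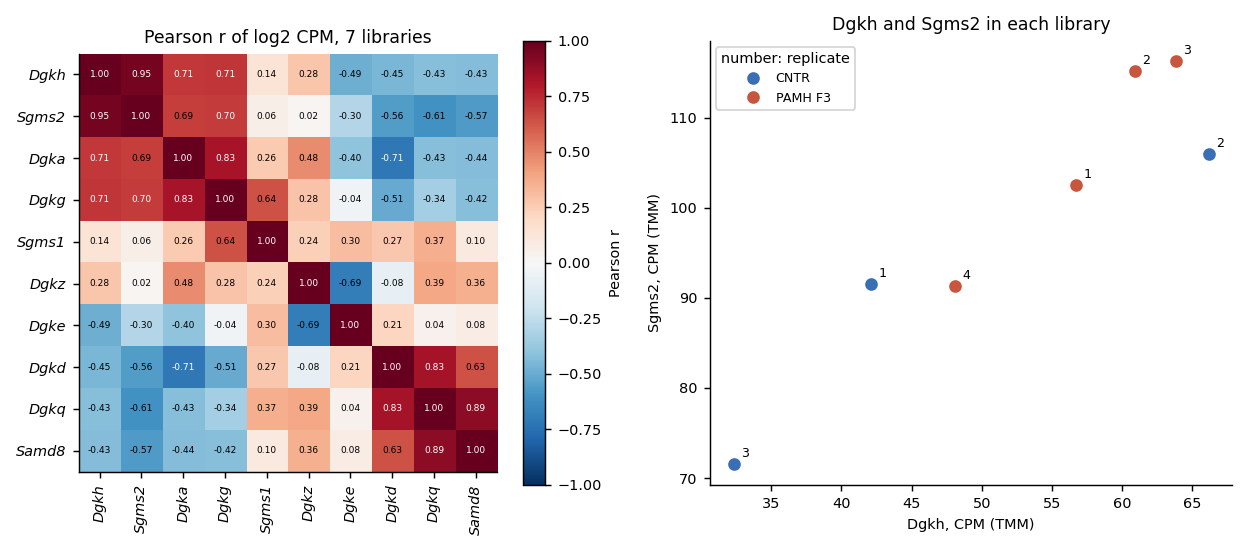
Left, Pearson's r between the log2 CPM of each pair of the 10 genes over 7 libraries (color scale from -1 to 1). Right, Sgms2 against Dgkh in CPM, 1 point per library with its replicate number, where CNTR replicate 3 is lowest on both axes and the groups mix along the trend (r = 0.95 on the log2 scale).

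Marker sums moved with several of these genes, and their part in the results was not tested. Dgkd ran against the summed oviduct markers (r = -0.93, rho = -0.89; -0.80 without the 2 libraries with the most extreme sums) and with the summed granulosa markers (r = 0.84, rho = 0.82; 0.49 without them). The granulosa sum was between 2761 and 4963 CPM in CNTR and between 3364 and 4962 CPM in PAMH F3, with counts for 6 of 6 markers in every library. Inhba alone had means of 1490 and 1867 CPM. Log2 fold changes of 4 of the 6 markers were above 0, with Inhba at 0.40, while Foxl2 was at -0.24 and Amh at -0.34. The sum therefore does not stand for every marker in it. Dgka ran against the granulosa sum (r = -0.84, rho = -0.54; -0.20 without the extreme libraries). Dgkd and Dgkq also ran against the 4 adipocyte markers, with r of -0.92 and -0.79, and that sum ranged from 296 to 975 CPM in CNTR and from 119 to 700 CPM in PAMH F3. The stroma sum was the one marker sum whose groups did not overlap, between 1485 and 1529 CPM in CNTR and between 1126 and 1460 CPM in PAMH F3, with 4 of 4 markers counted in every library. The groups overlapped for each stroma marker taken alone, and 1 of the 4 had a log2 fold change above 0. The r of the stroma sum was -0.18 with Dgkh and -0.18 with Sgms2. In all, 100 such relations were computed.

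Sgms2 ran against the summed luteal markers (r = -0.79, rho = -0.25), a relation that was 0.33 without the 2 libraries of most extreme sums, among them CNTR replicate 3 at 3064 CPM. The luteal sum was between 1659 and 3064 CPM in CNTR and between 1153 and 1988 CPM in PAMH F3, with 5 of 5 markers counted in every library. With the oviduct sum, r was 0.65 for Sgms2 and 0.48 for Dgkh. The first surrogate variable in the model had r of -0.74 with each of Dgkh and Sgms2, 0.89 with Dgkd and -0.85 with Dgka. With group means removed, r was -0.91 for Dgkh and -0.97 for Sgms2, and without the 2 farthest libraries -0.49 and -0.36. The model thus takes up part of the spread of these genes.

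Genes whose pattern was most like that of Sgms2 or Dgkh were taken from 15710 other protein-coding genes by Pearson's r of log2 CPM over the 7 libraries. For Sgms2 they were Sh2d4b (r = 0.99), which encodes an SH2 domain protein, Rassf5 (0.97), a Ras-association protein, Scmh1 (0.97), a Polycomb group protein, Gcnt3 (0.97), a mucin-type glycosyltransferase, and Ncald (0.96), a neuronal calcium sensor. For Dgkh they were Rassf5 (0.97), the glycosyltransferase B3gnt4 (0.97), the lysyl oxidase family gene Loxl4 (0.97), Npff (0.96), the precursor of neuropeptide FF, and the glycosyltransferase Large2 (0.96). Dgkh was number 7 in the order for Sgms2 and Sgms2 number 12 in the order for Dgkh, and Rassf5 was in both sets. Rassf5 was at 32.5 ± 9.21 CPM in CNTR ovaries (SD, n = 3) and 40.4 ± 6.67 CPM in PAMH F3 ovaries (SD, n = 4), with overlapping groups. With so many genes and 7 libraries, values of this size say little about any 1 gene.

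Around the kinases and synthases, 103 genes were grouped by what they do to diacylglycerol, phosphatidic acid, ceramide and sphingomyelin, and 99 of them were tested. At an adjusted p of at most 0.05 in edgeR's test, 0 were called, and DESeq2 called 0. At an unadjusted p under 0.05 there were 5 higher and 5 lower in PAMH F3, against 3.89% and 3.74% of all genes tested. Without surrogate variables there were 2 higher and 4 lower, and 3.89% of all genes tested passed in both directions together. Leaving out 1 library gave between 6 and 19 such genes with surrogate variables: 19 when PAMH F3 replicate 1 was dropped, 16 for CNTR replicate 1 and 6 for PAMH F3 replicate 2. With no surrogate variables it gave between 1 and 10: 10 for CNTR replicate 3 or PAMH F3 replicate 1, 3 for CNTR replicate 2 or PAMH F3 replicate 2, and 1 for PAMH F3 replicate 4. Shares of all genes at this p in the fits without 1 library are not given here, so nothing is read from these counts. With surrogate variables, genes called over all genes at an adjusted p of at most 0.05 also varied. They numbered 31 without PAMH F3 replicate 1 and 152 without CNTR replicate 1. Groups did not overlap for 2 genes higher and 5 lower in PAMH F3, against 1.85% and 2.4% of all genes tested. The median log2 fold change of the 99 was -0.03. The genes named are those with the smallest p of each list, and their adjusted p values were 0.54 or more.

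Diacylglycerol is made by phospholipase C enzymes. Of 15 genes, 14 were tested, with a median log2 fold change of 0.08. Plcl2, a phospholipase C-like protein without catalytic activity, was at 31.5 ± 2.8 CPM in CNTR ovaries (SD, n = 3) and 36.6 ± 2.1 CPM in PAMH F3 ovaries (SD, n = 4), and Plch2 at 32.8 ± 4.5 and 20.9 ± 5.3 CPM. Every PAMH F3 library was above every CNTR library for Plcl2 and below for Plch2, and the log2 fold changes were 0.26 with an SE of 0.08 and -0.62 with an SE of 0.21. Plch1 came next with 0.18 and an SE of 0.09.

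Phosphatidic acid is also made and removed by other enzymes, and 15 of 15 such genes were tested, with a median log2 fold change of 0.02. The acyltransferase genes Agpat4 and Agpat2 had log2 fold changes of 0.26 with an SE of 0.08 and -0.29 with an SE of 0.10. Plpp1, a phosphatase that returns phosphatidic acid to diacylglycerol, was at 21.9 ± 2.9 CPM in CNTR ovaries (SD, n = 3) and 17.8 ± 1.2 CPM in PAMH F3 ovaries (SD, n = 4) without overlap, and its log2 fold change was -0.22 with an SE of 0.10. Among 12 genes of lipid synthesis and breakdown around diacylglycerol, some of which form it, the median was -0.11. Pnpla2, the triglyceride lipase, stood at -0.17 and the acyltransferase Dgat1 at -0.15, with SEs of 0.06 and 0.07. Mogat2, a monoacylglycerol acyltransferase, was low, at 1.1 ± 0.869 CPM in CNTR ovaries (SD, n = 3) and 1.15 ± 0.564 CPM in PAMH F3 ovaries (SD, n = 4). Its log2 fold change was 0.59 with an SE of 0.24 with surrogate variables and 0.07 with an SE of 0.54 without.

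Proteins that bind diacylglycerol had a median log2 fold change of -0.13 over 16 genes. Prkcd, protein kinase C delta, was at 198, 184 and 198 CPM in CNTR and at 216, 211, 222 and 228 CPM in PAMH F3. Every PAMH F3 library was above every CNTR library, with a log2 fold change of 0.17 and an SE of 0.06. Rasgrp4 was at 13.9 ± 5.96 CPM in CNTR ovaries (SD, n = 3) and 15.9 ± 1.66 CPM in PAMH F3 ovaries (SD, n = 4), and the CNTR libraries, from 8.23 to 20.1 CPM, spanned the PAMH F3 ones. Its log2 fold change was 0.48 with an SE of 0.14 with surrogate variables and 0.20 with an SE of 0.25 without. Rasgrp1 stood at -0.90 with an SE of 0.33, with 26.9 CPM in CNTR replicate 1 and 18.7 CPM in PAMH F3 replicate 1, against 6.77 to 10.8 CPM in the others.

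On the ceramide side, 15 genes of synthesis and transport had a median log2 fold change of 0.01 and none with an unadjusted p under 0.05. The serine palmitoyltransferase subunit Sptlc1 was at -0.11, the ceramide synthase Cers5 at 0.10 and the desaturase Degs2 at 0.18, with SEs of 0.06, 0.08 and 0.15. For the breakdown of sphingomyelin and ceramide, 12 of 14 genes were tested, with a median of -0.08, and Enpp7 was listed at 0 in every library. The sphingomyelinases Smpd1 and Smpd2 were lower in every PAMH F3 library than in any CNTR library, at 47.6 ± 6.3 against 41.3 ± 0.97 CPM and at 54.4 ± 4.1 against 49.7 ± 1.6 CPM (SD, n = 3 and n = 4), with log2 fold changes of -0.13 and -0.10, and Smpd1 was at -0.20 without surrogate variables. The ceramidase Asah2 was at 0.15 with an SE of 0.07.

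Among 16 genes for other fates of ceramide and sphingosine, 15 were tested and the median log2 fold change was -0.08. S1pr1, a sphingosine-1-phosphate receptor, was at 21.1 ± 2.6 CPM in CNTR ovaries (SD, n = 3) and 16.1 ± 2.7 CPM in PAMH F3 ovaries (SD, n = 4), with a log2 fold change of -0.48 and an SE of 0.13. The sphingosine kinases Sphk1 and Sphk2 were at -0.25 and -0.14 with SEs of 0.12 and 0.07, and Sphk2 was at -0.38 without surrogate variables. S1pr1 is known in endothelium. The 4 endothelial markers had a median log2 fold change of -0.18 and summed to between 186 and 228 CPM in CNTR and between 154 and 236 CPM in PAMH F3, and their part in the S1pr1 value was not tested.

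**Figure D5:**
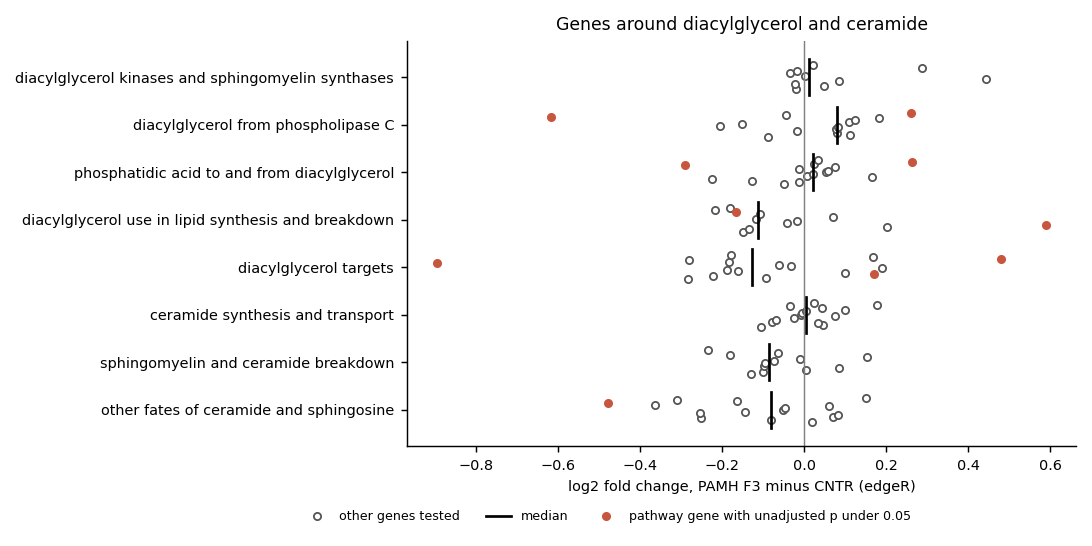
Log2 fold change, PAMH F3 minus CNTR (horizontal axis, edgeR with 2 surrogate variables), of the 10 kinase and synthase genes and of 7 lists of genes around diacylglycerol and ceramide, with the median of each list as a black line and pathway genes of unadjusted p under 0.05 filled. Medians lie between -0.13 and 0.08, and 0 genes passed an adjusted p of 0.05.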

How the data were processed

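Stranded poly(A) libraries were sequenced by the authors as single reads of 50 bases, mapped to mm10 with STAR 2.5.3a and counted on uniquely aligned reads with HTSeq 0.6.1p1 in union mode. The deposited values are raw counts per gene, and the Ensembl release is not given in the sources used here. The 5 summary lines per library, 45.8% to 47.5% of its counted alignments, were left out. Of 55487 identifiers, 55394 matched GENCODE M21. The 10 genes and all lists were chosen with earlier results of these data known.

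The quasi-likelihood F test of edgeR 4.0.16 (R 4.3.3) was run on TMM-scaled counts of the 18779 genes kept by filterByExpr (minimum count 10), with 2 surrogate variables from svaseq (sva 3.50.0, seed 1), 3 residual degrees of freedom and Benjamini-Hochberg adjustment (threshold 0.05). The SE of each edgeR log2 fold change was derived as its absolute value over the square root of F. DESeq2 1.42.0 was an alternative. Log2 CPM used a prior count of 2. Coding sequences of the longest coding transcripts were aligned locally, and protein sequences were not compared here. Motifs were searched on both strands. Named pathway genes are those past the threshold in each list or, with 0 such genes, the 3 of smallest p. The same rule covered the marker lists, which are given here as sums except for the granulosa genes named. Ovgp1 and Insl3 were named after their values were seen.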

Additional observations from a re-analysis of the deposited data

Results flagged for a closer look

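In PAMH F3, 48 values (the 10 genes, ratios and sums of them, the named pathway genes and the marker sums) were checked for a library far from the other 3. None of the 10 kinase and synthase genes had one. Rasgrp1 was at 18.7 CPM in PAMH F3 replicate 1, against 6.77 to 7.98 CPM in the others, a gap of 0.899 of the group's range. S1pr1 was at 20.1 CPM in the same library, against 14.2 to 15.2 CPM, a gap of 0.830 of the range. Both gaps are above Dixon's 95% critical value for 4 samples. Chance gives such a gap in about 5% of groups.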

How the results depend on the processing

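Counts of members called stayed at 0 under all 25 alternatives, among them leaving out each library without surrogate variables and bias-adjusted deviances, which were chosen after seeing the data. Genes called over all genes tested numbered 101 with DESeq2 and the same surrogate variables, 6 with DESeq2 without them and 8 with no filter on low counts. Leaving out 1 library gave between 0 and 152 genes, the 152 when CNTR replicate 1 was left out, where 1 surrogate variable was estimated in place of 2, and 31 when PAMH F3 replicate 1 was. The corresponding range was between 0 and 2 without surrogate variables, with 0 for CNTR replicate 1. With surrogate variables, pathway genes called numbered between 0 and 1: Sphk2 in the former case and Rasgrp1 in the latter. The cause was not tested. The median log2 fold change of the 10 genes lay between -0.06 and 0.07.

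Dgkh lay between 0.085 and 0.62 and Sgms2 between 0.11 and 0.38 on the log2 scale, above 0 under all 25 alternatives. The list was drawn up with these differences known and every fit draws on the same 7 libraries, so this sign is a description. Leaving out 1 library gave Dgkh between 0.27 and 0.58 with surrogate variables and between 0.085 and 0.62 without, the lowest without CNTR replicate 3. Dgke lay between -0.069 and 0.12 and Dgkz between -0.15 and 0.0030 with surrogate variables, and between -0.06 and 0.12 and between -0.15 and -0.01 without. The neighboring pairs past the threshold in the order of levels were 7. Per kb of the longest coding transcript, 4 passed in the same order, while Dgkz and Sgms1 (mean log2 ratio -0.44) and Dgkh and Dgkq (-1.21) passed in the reverse order. Deviations of same-numbered libraries had correlations of 0.096, 0.097 and -0.248, and those of differently numbered ones lay between -0.235 and 0.277. With so few libraries, these values cannot decide whether the numbers pair mice. With a replicate block and no surrogate variables, 0 genes were called, and Dgkh was at 0.44 and Sgms2 at 0.33. Dgkg, at 18 to 54 counts per library, had the widest SE of the 10 genes.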
